A study of Mus musculus with 2 samples.

Results

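Several HES and HEY repressors and Nrarp are genes through which Notch signalling is often read. The 10 genes followed here by name were Hes1, Hes2, Hes3, Hes5, Hes6, Hes7, Hey1, Hey2, Heyl and Nrarp. All 10 have a row with reads in the deposited table, which lists 21937 genes, 18759 of them with reads. The cells were wild-type mouse embryonic stem (ES) cells of mixed 129Sv-C57Bl/6 strain, cultured free of feeders. One group received the solvent DMSO and the other ICRF-193 at 500 nM, an inhibitor of the catalytic cycle of topoisomerase II, for 16 h in both cases. Each group is labelled as 3 replicates, and the labels do not tell whether these came from separate cultures, so every p-value below measures the spread between libraries, which may be technical. The comparison asks how transcript levels differ when topoisomerase II is blocked.

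As background, a Notch receptor that binds a ligand on a neighbouring cell is cut, and its inner part enters the nucleus, where it joins the DNA-binding protein RBPJ and activates transcription. Hes1, Hes5, Hes7, Hey1, Hey2 and Heyl are well known targets of this complex. They encode basic helix-loop-helix proteins that bind N-box and related DNA motifs and silence genes of differentiation such as the proneural factors. The HES proteins do so together with TLE corepressors. Nrarp encodes a small ankyrin-repeat protein that is induced by Notch and binds the Notch-RBPJ complex to limit it. In ES cells Hes1 is known to vary from cell to cell and to respond to signals other than Notch as well.

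Levels are normalised reads, that is, reads of a gene divided by a size factor for the depth of its library, and the table lists their group means. The reads of single libraries were worked back from the digits of these means, with 1 possible solution for each of the 10 genes. Libraries were named A, B and C in each group by falling size factor, which is a name and pairs nothing. Depth ran from 29537831 to 47405429 reads per library. A gene is called where the adjusted p of the DESeq test in the authors' deposited table is under 0.05. Libraries A differed from B and C in both groups. Summed over 10 fibroblast markers, they held 37577 normalised reads in DMSO against 7348 and 8036, and 48949 in ICRF-193 against 11017 and 10244. Most of the DMSO-A sum was Vim, at 19501, and Col1a1, at 12908. Col1a2, Col3a1, Pdgfrb and Postn were also highest in A in both groups, whereas Thy1 was lowest there in both. Summed over 8 primitive endoderm markers, libraries A held 17141 against 3664 and 5127, and 13598 against 4525 and 5585. Most of the sum in libraries A was Lama1, at 12951 in DMSO-A and 9355 in ICRF-193-A, and all 8 genes were highest in A in both groups. All 12 ES cell markers had reads, with sums of 150598 to 168383 in DMSO and 99872 to 116875 in ICRF-193. Further tests were therefore made on the worked-back reads with limma-voom, without and with a term for the split between the A libraries and the rest. The term was planned with earlier results of these data known, and which libraries it separates was taken from the values.

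RefSeq promoter windows (build GRCm38.p6, not the mm9 build of the deposited data) were at hand for 5 of the 10 genes: Hes5, Hes6, Hes7, Hey2 and Nrarp. Those of Hes5 and Hey2 are shown since both are textbook RBPJ targets whose transcripts had changes of opposite sign, although that of Hes5 did not pass the deposited test, and those of Nrarp and Hes6 as the more abundant transcripts with a higher mean in ICRF-193. Each window runs from 250 bases before the annotated start to 30 bases after it, 5′ to 3′ on the strand of the gene, and capitals mark the RBPJ core, TGGGAA on either strand. Hes5 lies at chr4:154960673-154960952 (plus strand), Hey2 at chr10:30842754-30843033 (minus), Nrarp at chr2:25180508-25180787 (plus) and Hes6, at the second of its 2 listed starts, at chr1:91413193-91413472 (minus).
Hes5: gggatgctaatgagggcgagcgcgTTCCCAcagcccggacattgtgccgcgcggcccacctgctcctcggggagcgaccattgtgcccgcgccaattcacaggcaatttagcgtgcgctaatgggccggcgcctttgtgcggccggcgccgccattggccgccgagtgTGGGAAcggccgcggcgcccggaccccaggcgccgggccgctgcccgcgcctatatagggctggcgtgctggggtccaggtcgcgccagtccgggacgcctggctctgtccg
Hey2: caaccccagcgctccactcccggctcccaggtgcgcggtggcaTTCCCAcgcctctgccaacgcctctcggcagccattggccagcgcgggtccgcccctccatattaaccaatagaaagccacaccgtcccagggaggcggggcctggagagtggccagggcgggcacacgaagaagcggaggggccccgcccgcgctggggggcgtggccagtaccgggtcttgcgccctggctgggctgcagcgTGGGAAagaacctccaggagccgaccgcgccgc
Nrarp: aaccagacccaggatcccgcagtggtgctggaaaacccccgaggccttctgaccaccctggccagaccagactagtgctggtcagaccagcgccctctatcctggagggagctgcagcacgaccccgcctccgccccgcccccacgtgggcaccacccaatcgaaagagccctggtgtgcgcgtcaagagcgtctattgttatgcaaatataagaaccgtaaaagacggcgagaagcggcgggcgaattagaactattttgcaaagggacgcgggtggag
Hes6: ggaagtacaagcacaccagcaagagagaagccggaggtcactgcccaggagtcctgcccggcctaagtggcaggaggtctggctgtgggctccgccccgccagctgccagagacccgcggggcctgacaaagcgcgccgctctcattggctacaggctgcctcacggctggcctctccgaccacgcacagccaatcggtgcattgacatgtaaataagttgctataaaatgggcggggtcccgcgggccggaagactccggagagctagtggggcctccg

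The Hes5 and Hey2 windows each held 2 RBPJ cores, the first on the opposite strand and the second on the strand of the gene. They began 226 and 82 bases before the start in Hes5, and 207 and 3 bases before it in Hey2. The Hes7 window held 1 core, and those of Nrarp and Hes6 (both starts) held none. Among 32851 promoter windows of the same length, 23.8% held at least 1. The N-box, searched as CACNAG on both strands, matched 2 times in Nrarp, 2 times in the printed Hes6 window and 1 time in Hes7, and 40.2% of all windows held it. The related motif CACGNG matched 1 time in Nrarp, 2 times in Hes7 and 1 time at the other Hes6 start, against 26.1% of all windows. One Hes7 match of CACNAG and one of CACGNG overlap. These are letter matches and do not show binding.

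Hey2, Heyl and Nrarp rose in ICRF-193, and no member fell by the deposited test. In the authors' deposited table that makes 3 of 10 members called higher, where 5.97% of all genes with reads were called higher and 1.26% lower. In the same 3 genes, and in no other member, every ICRF-193 library lay above every DMSO library. Such separation was found for 18.6% of 14976 genes tested in limma-voom in the upward direction and for 18.8% in the downward direction. The median deposited log2 fold change of the 10 members was 0.37, beside -0.000995 over all genes with reads.

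**Figure D1:**
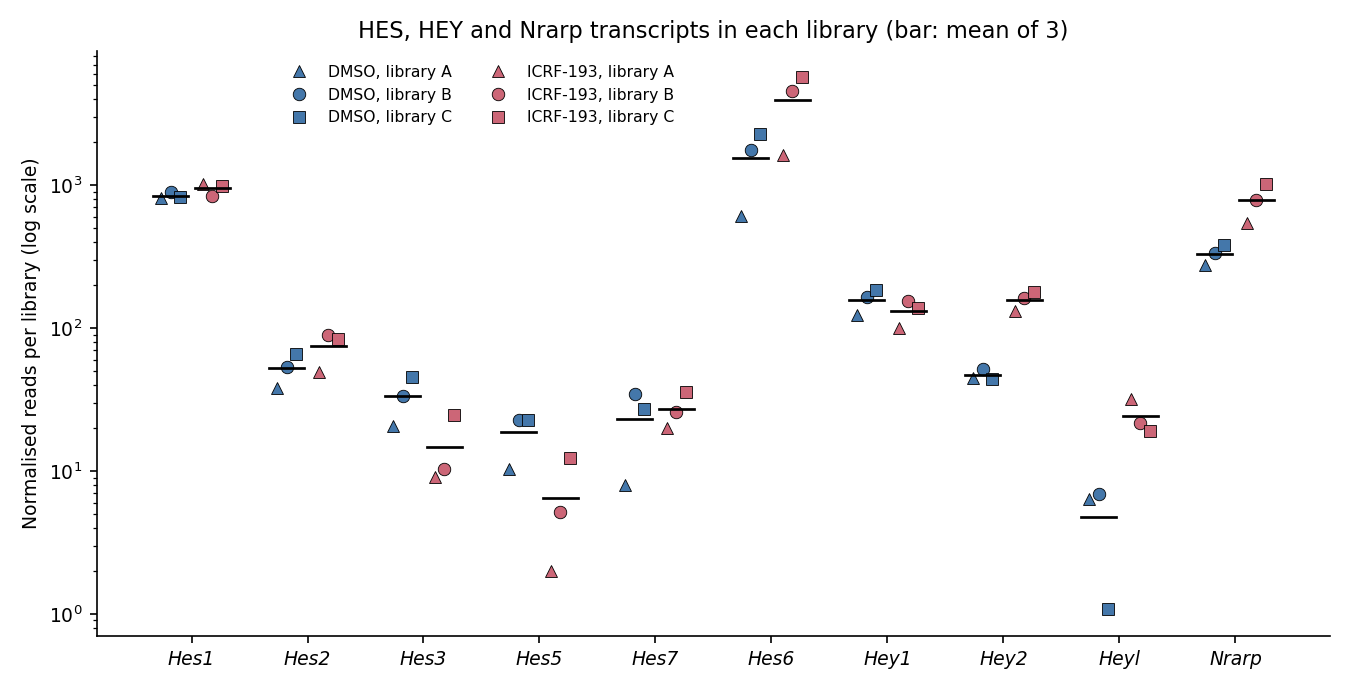
Normalised reads (log axis) of each member in each of the 6 libraries, DMSO in blue and ICRF-193 in red, with triangles, circles and squares for libraries A, B and C and a bar for the mean of 3. Hey2, Heyl and Nrarp are separated between the groups, and for Hes6 the A library lies far below B and C in both groups.

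Hey2, a HEY repressor known from heart and artery development, stood at 44.6, 51.6 and 44.3 normalised reads in DMSO-A, DMSO-B and DMSO-C and at 131, 163 and 180 in the ICRF-193 libraries, again in the order A, B, C. The DMSO libraries lay close together, and the lowest ICRF-193 library was well above the highest of them. Its mean rose 3.37-fold, from 46.8 ± 4.13 to 158 ± 24.4 (mean ± SD, n = 3). Its log2 fold change in the authors' deposited table was 1.75 (DESeq, adjusted p = 3.93e-06). In limma-voom the value was 1.73 with a standard error of 0.199 (adjusted p = 0.00473), and the call held without any one of the 6 libraries (adjusted p from 0.00605 to 0.0343). Within libraries A the ratio was 2.95, and in libraries B and C it was 3.57.

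Heyl, the third HEY gene and a Notch target of vessel smooth muscle and muscle precursors, was at the edge of detection in DMSO. It had 8, 7 and 1 reads in the DMSO libraries and 32, 21 and 17 in the ICRF-193 libraries. That is 6.37, 6.94 and 1.08 normalised reads against 32.1, 21.8 and 19.1. The groups did not overlap, although the DMSO side rests on 16 reads in all. The mean rose 5.07-fold, from 4.80 ± 3.23 to 24.3 ± 6.89 (mean ± SD, n = 3), with a log2 fold change of 2.34 in the authors' deposited table (DESeq, adjusted p = 0.00635). In limma-voom it was 2.45 with a standard error of 0.577 (adjusted p = 0.0354). Without DMSO-C, the library with 1 read, it was 1.78 and no longer passed (limma-voom, adjusted p = 0.0579), nor did it pass without DMSO-B (2.88, adjusted p = 0.0774). Only the ICRF-193 libraries reached 10 reads, so Heyl entered limma-voom through the group in which it was high, and this test is no independent support. Without any one of the ICRF-193 libraries too few libraries reached 10 reads for a test.

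Nrarp, the feedback inhibitor, was at 276, 338 and 381 normalised reads in DMSO-A, DMSO-B and DMSO-C and at 544, 790 and 1021 in libraries A, B and C of ICRF-193. Library A was the lowest in both groups, and the groups did not overlap. The mean rose 2.36-fold, from 332 ± 52.9 to 785 ± 239 (mean ± SD, n = 3), with a log2 fold change of 1.24 in the authors' deposited table (DESeq, adjusted p = 0.0169). In limma-voom it was 1.21 with a standard error of 0.264 (adjusted p = 0.0282), and 1.21 with a standard error of 0.123 with the split term (adjusted p = 1.43e-05). Without DMSO-B, DMSO-C, ICRF-193-B or ICRF-193-C the limma-voom call was lost (adjusted p from 0.0731 to 0.114). The exonic sequence of Nrarp overlaps an antisense gene, Gm38287, in GENCODE M21, and since the strand setting of the counting is not given in the sources used here, reads of both cannot be told apart.

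Hey1, which shares the domains of Hey2 and is likewise a Notch target, did not pass. Its libraries ran from 123 to 185 normalised reads in DMSO and from 100.4 to 156 in ICRF-193, so the groups overlapped. The deposited log2 fold change was -0.27 (the authors' DESeq test, adjusted p = 0.822), and the 95% interval in limma-voom spanned -0.84 to 0.32 on the log2 scale. Per kilobase of exon, Hey2 stood at 0.170 to 0.257 of Hey1 in the DMSO libraries and at 0.744 to 0.931 in the ICRF-193 libraries. This ratio of the pair did not overlap between the groups, but it reuses the Hey2 values given above and is no separate support. The share of gene pairs with such a separation is not given here. The exact permutation test of 3 against 3 libraries cannot give a two-sided p under 0.1, and 0.1 is what Hey2, Heyl and Nrarp each gave.

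Hes1, the best studied HES repressor of ES cells, did not pass. It was at 814, 897 and 830 normalised reads in the DMSO libraries and at 1027, 846 and 985 in the ICRF-193 libraries. The highest DMSO library lay above the lowest ICRF-193 library. The means were 847 ± 43.8 and 953 ± 94.7 (mean ± SD, n = 3), with a log2 fold change of 0.17 in the authors' deposited table (DESeq, adjusted p = 0.874). With the split term the limma-voom value was 0.17 and its 95% interval ran from -0.019 to 0.36 (adjusted p = 0.109). That interval leaves out a change as large as that of Hey2, Heyl or Nrarp. With the split term and scaling by total reads, Hes1 was called higher at 0.30 (limma-voom, adjusted p = 0.0114), in a fit that called 36.4% of all genes higher and 19.5% lower. Total read scaling moved the median log2 fold change of all genes in limma-voom from -0.04 to 0.09.

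Hes3 and Hes5 were lower in ICRF-193 without passing the deposited test. Hes5, a Notch target and marker of neural progenitors, was at 10.3, 22.8 and 22.7 normalised reads in DMSO-A, DMSO-B and DMSO-C and at 2.01, 5.18 and 12.3 in libraries A, B and C of ICRF-193. The groups overlapped only through DMSO-A and ICRF-193-C. Hes3, known from neural stem cells, was at 20.7, 33.7 and 45.4 in DMSO and at 9.03, 10.4 and 24.7 in ICRF-193, and again only DMSO-A and ICRF-193-C overlapped. Both are low, with 13 to 42 reads per DMSO library and 2 to 22 per ICRF-193 library. The deposited log2 fold changes were -1.52 for Hes5 (the authors' DESeq test, adjusted p = 0.175) and -1.18 for Hes3 (adjusted p = 0.248). Their unadjusted p-values in the deposited test were 0.0214 and 0.0370, and 5.38% of all genes were lower at an unadjusted p under 0.05. With the split term both were called lower in limma-voom, Hes5 at -1.62 with a standard error of 0.388 (adjusted p = 0.00434) and Hes3 at -1.23 with 0.341 (adjusted p = 0.00939). Both reached 10 reads in every DMSO library but not in every ICRF-193 library. They thus entered limma-voom through the group in which they were high, and this test is no independent support. Exons of Hes5 overlap the antisense gene Gm20421 in GENCODE M21.

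Hes2 and Hes7 did not pass either. Hes2, a HES repressor with no settled role in ES cells, ran from 38.2 to 65.9 normalised reads in DMSO and from 49.2 to 90.2 in ICRF-193. Its deposited log2 fold change was 0.50 (the authors' DESeq test, adjusted p = 0.501), and it passed with the split term (limma-voom, 0.50, adjusted p = 0.0342). Hes7, the oscillating repressor of the segmentation clock, was at 7.96, 34.7 and 27.0 in DMSO and at 20.1, 25.9 and 35.9 in ICRF-193. Its groups overlapped widely, and the deposited log2 fold change was 0.23 (the authors' DESeq test, adjusted p = 0.933). Without both A libraries the limma-voom value of Hes7 was -0.016, and without DMSO-A alone it was -0.21. Its exons overlap the antisense gene 9130213A22Rik in GENCODE M21.

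Hes6 differs in role from the rest of the family: its protein is known to antagonise Hes1 and to promote neuronal and muscle differentiation. It was at 607, 1757 and 2293 normalised reads in DMSO-A, DMSO-B and DMSO-C and at 1618, 4546 and 5701 in libraries A, B and C of ICRF-193. ICRF-193-A lay below DMSO-B and DMSO-C, so the groups overlapped. Library A of ICRF-193 was above that of DMSO, and libraries B and C of ICRF-193 were both above those of DMSO. The means were 1552 ± 861 and 3955 ± 2104 (mean ± SD, n = 3), 2.55-fold apart. The log2 fold change was 1.35 in the authors' deposited table, with an unadjusted DESeq p of 0.0498 and an adjusted p of 0.296, where 11.5% of all genes were higher at an unadjusted p under 0.05. The ratio was 2.66 within libraries A and 2.53 in libraries B and C. In limma-voom Hes6 did not pass (1.39, standard error 0.644, adjusted p = 0.194), while with the split term it rose by 1.36 with a standard error of 0.108 (adjusted p = 2.96e-06). Without both A libraries it was 1.34 (limma-voom, adjusted p = 1.44e-05).

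**Figure D2:**
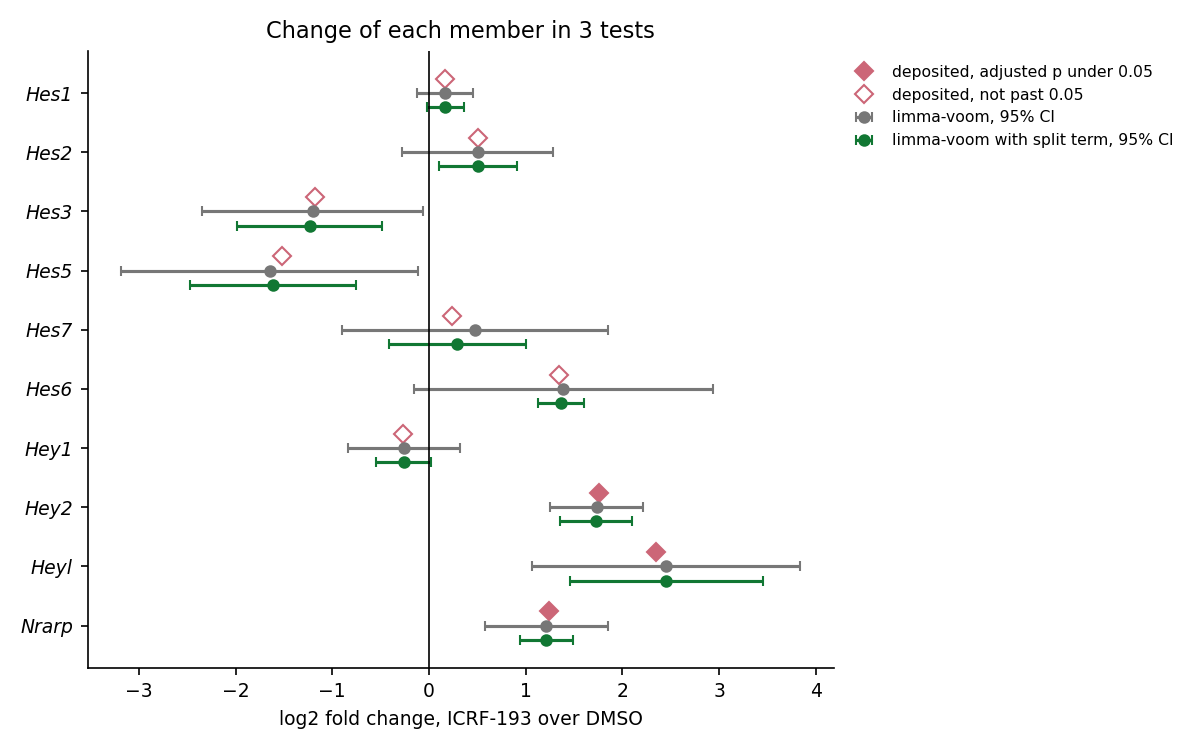
Log2 fold change of ICRF-193 over DMSO for each member: deposited value (diamonds, filled where adjusted p is under 0.05), limma-voom (grey) and limma-voom with the split term (green), the latter 2 with 95% confidence intervals. Hes7 has the values 0.23, 0.47 and 0.29 in that order, and the interval of Hes6 narrows most with the split term.

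Over all 10 members, limma-voom called the same 3 genes higher and none lower, where 9.75% of 14976 genes were called higher and 5.95% lower. Heyl entered this test only through its reads in ICRF-193, and Hes3 and Hes5 only through their reads in DMSO. At an unadjusted p under 0.05 limma-voom had 5 members, 3 higher and, with Hes3 and Hes5, 2 lower, where it had 17.0% of all genes higher and 15.1% lower. With the split term it called 5 higher (Hes2, Hes6, Hey2, Heyl and Nrarp) and 2 lower (Hes3 and Hes5), in a fit that called 27.1% of genes higher and 32.7% lower. Leaving out both A libraries gave 4 higher and 2 lower among 9 members tested, without Heyl, where 24.1% of genes were called higher and 29.9% lower.

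The members differed in how far the A libraries departed from the rest. In DMSO the log2 ratio of A to the mean of B and C was -1.74 for Hes6, -1.96 for Hes7, -1.14 for Hes5 and -0.93 for Hes3. All of these lay below the 5th percentile of all genes tested, -0.83, which was taken on normalised reads + 1, unlike the values of the members. It was -0.08 for Hes1 and -0.11 for Hey2, and Heyl alone was higher in A, at 0.67. In ICRF-193 Hes6 was at -1.66, Hes3 at -0.96 and Hes5 at -2.13, the last with 2 reads in library A, while Hes7 was at -0.62. The 5th percentile there, on normalised reads + 1, was -0.85. Across 13486 genes this ratio increased with exonic length, with Spearman's rho of 0.446 in DMSO and 0.442 in ICRF-193, as a description, since genes are not independent replicates. Of the members 8 are shorter than the median exonic length of 4338 bases, Hes6 with 1808 among them, and only Hey2 with 4593 and Heyl with 5113 are longer. The part of length, or of the fibroblast and endoderm transcripts in libraries A, in these values was not tested. The interaction of the split with the treatment called 0 of 14976 genes in limma-voom, with 1157 at an unadjusted p under 0.05. None of the 10 members was among these, and their lowest unadjusted p in this limma-voom test was 0.0717, for Hes7.

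**Figure D3:**
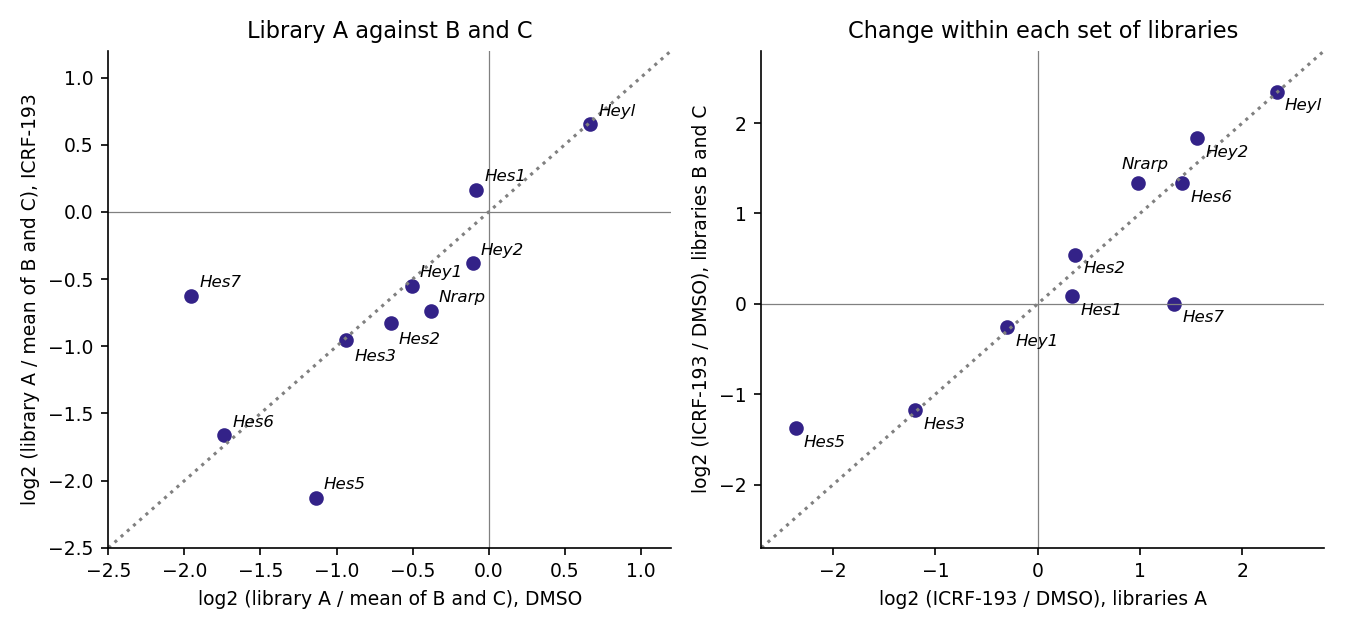
Left, log2 ratio of library A to the mean of libraries B and C in DMSO (x) and ICRF-193 (y) for each member. Right, for the same genes, log2 ratio of ICRF-193 to DMSO within libraries A (x) and within libraries B and C (y). Dotted lines mark equality. Hes6 is far below 0 on both axes at the left and close to the line at the right, whereas Hes5 and Hes7 lie off the line in both plots.

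Levels between genes were compared per kilobase of exon, with lengths from GENCODE M21. In DMSO the order was Hes6 at 859 ± 476 normalised reads per kilobase, Hes1 at 416 ± 21.5, Nrarp at 129 ± 20.5 and Hey1 at 48.4 ± 9.63 (mean ± SD, n = 3). Hes2, Hes3, Hes5, Hes7 and Hey2 followed between 19.9 and 10.2, each within the spread of its neighbours, and Heyl came last at 0.938 ± 0.632. Hes6 and Hes1 were not separated, since Hes1 exceeded Hes6 in DMSO-A. In ICRF-193 Hes6 at 2187 ± 1164 was above Hes1 at 468 ± 46.5 in every library, followed by Nrarp at 304 ± 92.4 (mean ± SD, n = 3). Hey2 moved from the ninth place to the fifth, at 34.4 ± 5.31, which lies within the spread of Hey1 at 40.2 ± 8.63 and Hes2 at 28.2 ± 8.40 (mean ± SD, n = 3). Hes5 and Heyl were together at the bottom, at 4.78 and 4.76.

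Hes6 and Hes1 made up most of the summed level of the 9 HES and HEY transcripts. Hes6 took 40.9%, 62.7% and 69.6% of it per kilobase in DMSO-A, DMSO-B and DMSO-C and 59.6%, 81.8% and 83.1% in the ICRF-193 libraries. Hes1 took 48.7%, 28.4% and 22.4%, and then 33.6%, 13.5% and 12.7%. The shares overlapped between the groups through the A libraries, and Hes6 took more in ICRF-193 both among libraries A and among libraries B and C. The ratio of Hes6 to Hes1 ran from 0.840 to 3.11 in DMSO and from 1.78 to 6.52 in ICRF-193. In bulk RNA, a change in the number of cells that express a gene and a change of RNA per cell cannot be told apart.

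**Figure D4:**
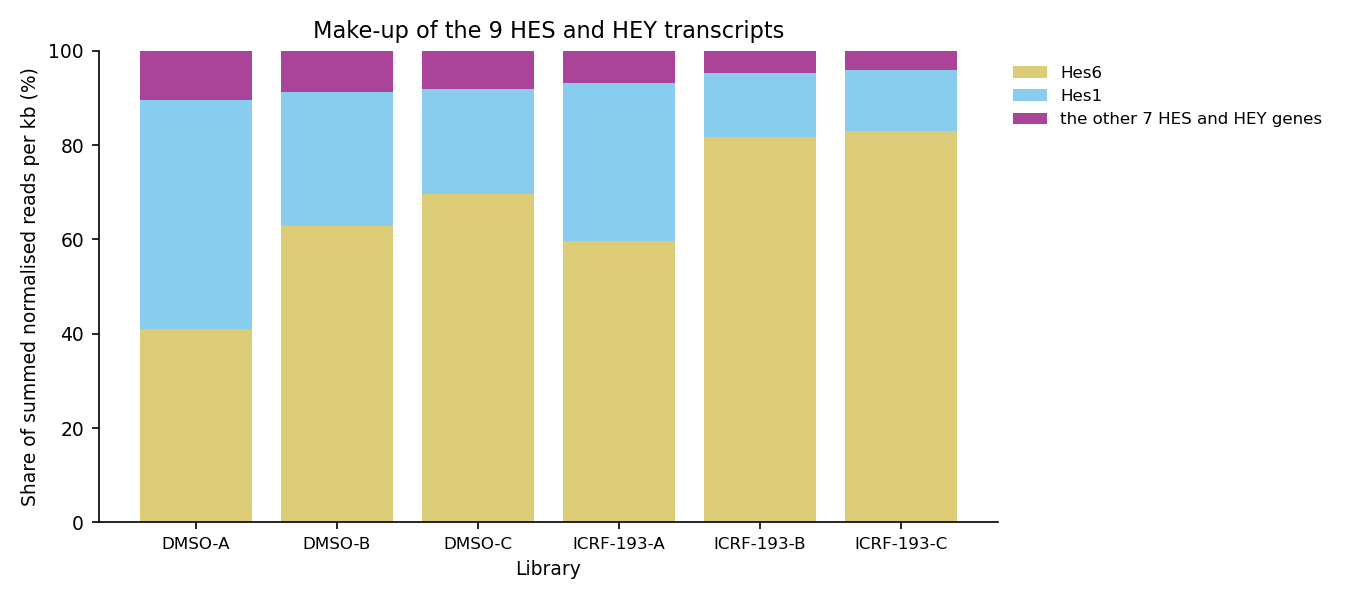
Share (%) of Hes6, Hes1 and the other 7 HES and HEY genes in the sum of their normalised reads per kilobase, one bar per library. Hes6 takes 40.9% to 69.6% in DMSO and 59.6% to 83.1% in ICRF-193, with the lowest share of each group in library A.

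Upstream of the members, 5 of 12 Notch receptors and ligands rose and none fell in the deposited test, where 5.97% of all genes with reads were called higher and 1.26% lower. The receptor Notch1 went from 2378 ± 412 to 4069 ± 35.6 normalised reads, and the receptor Notch3 from 4549 ± 964.5 to 9134 ± 863 (mean ± SD, n = 3). Of the ligands, Dll1 went from 389.7 ± 101 to 706 ± 164 and Jag2 from 2954 ± 443 to 4931 ± 980.0 (mean ± SD, n = 3). Dlk2, a noncanonical relative of the ligands, was at 35.8, 40.7 and 63.8 in DMSO and at 143, 236 and 221 in ICRF-193. In that order, their log2 fold changes in the authors' deposited table were 0.77, 1.01, 0.86, 0.74 and 2.10 (DESeq, adjusted p from 1.60e-06 to 0.0452). Limma-voom called 4 of them, without Dll1 (adjusted p = 0.0645), where 9.75% of all genes tested were called higher and 5.95% lower. With the split term 7 of the list were higher and 1 lower, beside 27.1% and 32.7% of all genes. The median deposited log2 fold change of the list was 0.57.

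Of 27 genes for cleavage, sugar modification, endocytosis and turnover of Notch 0 passed in the deposited DESeq test, with 1 higher and 1 lower at an unadjusted p under 0.05. The limma-voom test called 1, Fbxw7, and with the split term 7 in each direction. Fbxw7, the ubiquitin ligase subunit that marks the Notch fragment for decay, was at 0.71 and Dtx1, a Notch regulator and target, at -0.59 in the deposited log2 fold change (the authors' DESeq test, adjusted p = 0.0637 and 0.188). Of 18 genes of the nuclear complex and its cofactors, Kat2b, a histone acetyltransferase, fell from 1799 ± 446 to 966 ± 241 (mean ± SD, n = 3; log2 fold change -0.90 in the authors' deposited table, DESeq adjusted p = 0.0440). In this list the limma-voom test called 3 lower, Kat2a, Kat2b and Ctbp2. The split term brought this to 11 lower and 2 higher, and the median deposited log2 fold change was -0.28. Of 14 other genes known to respond to Notch in some tissue, 1 rose, Cdkn1a, a cell-cycle inhibitor that is also a p53 target, from 2246 ± 901 to 6681 ± 599.9 (mean ± SD, n = 3). Over these 4 lists together, without members, 6 of 70 genes rose and 1 fell in the deposited test, where 5.97% and 1.26% of all genes with reads did. Their median log2 fold change was 0.05. With the split term limma-voom called 22 of 69 tested higher and 19 lower, where 27.1% and 32.7% of all genes were so called.

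**Figure D5:**
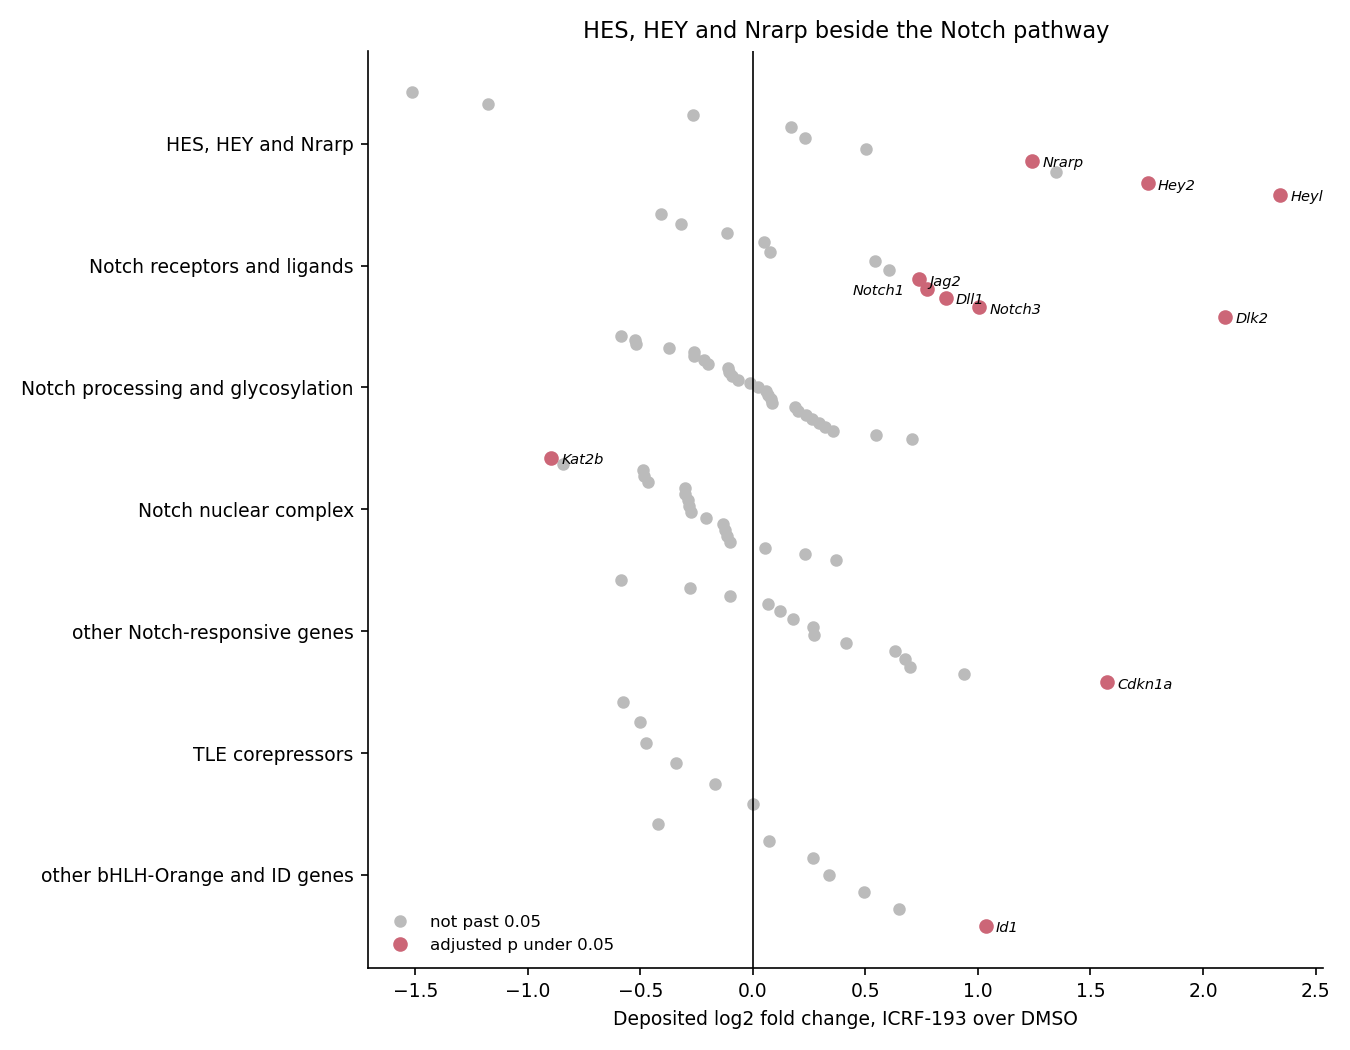
Deposited log2 fold change (x) of each gene in the list of members and 6 related lists (y), with genes past an adjusted p of 0.05 in red and named. Calls among receptors and ligands and among members are all to the right of 0, and Kat2b is the called gene to the left.

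Partners and known targets of the HES repressors were followed in the same way. Of 6 TLE corepressor genes 0 passed in the deposited DESeq test, with 3 lower at an unadjusted p under 0.05. The limma-voom test called 1 lower, Tle1, and 4 lower with the split term. Tle1 was at -0.58 and Tle6 at -0.50 in the deposited log2 fold change (the authors' DESeq test, adjusted p = 0.159 and 0.293). Of 7 other genes of related repressor and ID proteins 1 rose, Id1, an inhibitor of basic helix-loop-helix factors, from 3553 ± 533 to 7273 ± 789 (mean ± SD, n = 3; log2 fold change 1.03 in the authors' deposited table). At an unadjusted DESeq p under 0.05, 3 were higher and 0 lower, beside 11.5% and 5.38% of all genes. Limma-voom called 1 of 6 tested higher, and with the split term 5 were higher and 0 lower, beside 27.1% and 32.7% of all genes. Of 10 proneural genes and Delta ligands known as HES targets, 3 rose and 1 fell in the deposited test, beside 5.97% and 1.26% of all genes with reads. Neurod1 went from 1187 ± 516 to 3063 ± 804 and Neurog3 from 55.9 ± 5.38 to 17.7 ± 6.63 (mean ± SD, n = 3). Neurog2, at 0.796, 0 and 1.08 normalised reads in DMSO and 8.03, 31.1 and 21.3 in ICRF-193, and Dll1, given above, were the others. Limma-voom tested 6 of the 10 and called 0 higher and 1 lower, Neurog3. Neurod1 and Dll1 did not pass (limma-voom, adjusted p = 0.0532 and 0.0645), and Neurog2 had too few reads for this test. With the split term 2 were higher and 1 lower, beside 27.1% and 32.7% of all genes. Among 14 genes of the segmentation clock 4 rose, namely Hey2, Heyl and Nrarp, which are members, and Dll1. All 4 are counted above already, so this list adds no separate support. In limma-voom 3 were called higher and 0 lower, beside 9.75% and 5.95% of all genes. The split term gave 8 higher and 2 lower, beside 27.1% and 32.7%.

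Genes that mark cells known for Hes or Hey expression were measured beside these values. Of 8 endothelial markers 1 rose, the receptor gene Tek, from 343 ± 73.3 to 953 ± 152 (mean ± SD, n = 3), and the summed level of the list was 3283 to 3523 normalised reads in DMSO and 3805 to 4056 in ICRF-193, with Emcn under 10 in every library. Most of that sum is Pecam1, at 2472 ± 230.1 and 2182 ± 50.9 (mean ± SD, n = 3). In the deposited DESeq test 4 of the 8 had an unadjusted p under 0.05, all higher. Tek and Tie1 were the 2 that limma-voom called. With the split term it called 5 higher, 1 lower, and the median deposited log2 fold change of the list was 0.72. Of 10 mesoderm genes Mesp2 and Meox1 rose, and the sum was 825 to 1224 and 1221 to 1290, with Msgn1 and Ripply2 under 10. At an unadjusted DESeq p under 0.05, 4 were higher and 0 lower. In limma-voom 2 were called, or 5 upward and 1 downward once the split term was added, and the median was 0.60. Of 10 neural progenitor markers Zic1 rose and Pax6 fell, with sums of 6338 to 9222 and 6217 to 8011. Limma-voom called 1 in each direction, and with the split term 4 in each, and the median was 0.04. Of 8 neuron markers, 8 endoderm markers and 10 fibroblast markers 0 passed in the deposited DESeq test, with 0, 0 and 1 at an unadjusted p under 0.05. The limma-voom test called 0 in each list. With the split term it called 3 neuron markers (2 higher and 1 lower), 1 endoderm marker (higher) and 4 fibroblast markers (all higher). The neuron sums were 17225 to 22139 and 14346 to 18224. Most of them was Stmn2, which did not pass, at 14281 ± 1691 and 10324 ± 1096 (mean ± SD, n = 3). The median deposited log2 fold change of the neuron list was 0.13. Of the 12 ES cell markers Zfp42 and Dppa3 fell, and 5 were lower at an unadjusted DESeq p under 0.05. In limma-voom 3 were called lower, Sox2 with those named. The split term raised this to 11 lower with 0 higher, and the median was -0.58. Of 12 targets of p53, among them Cdkn1a, 9 rose, with a median of 1.49. Shares over all genes, higher and lower, were 5.97% and 1.26% in the deposited test and 9.75% and 5.95% in limma-voom. With the split term they were 27.1% and 32.7%, and for an unadjusted DESeq p under 0.05 they were 11.5% and 5.38%. The counts of each list are to be read beside these shares. No marker gene was at 0 in all libraries. The part of other cell types in the values of the members was not tested.

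Neighbouring genes on the chromosome were read in the same tests. The nearest gene of the table on each side, in the RefSeq order of GRCm38.p6, gave 20 genes, of which 0 passed in the deposited DESeq test, with 4 at an unadjusted p under 0.05. Of the 14 that were tested in limma-voom 1 was called, Espn next to Hes2, and with the split term 11. Shares of all genes called were 5.97% higher and 1.26% lower in the deposited test, and 27.1% and 32.7% with the split term. Next to Hey2, Hddc2 was at -0.61 and Ncoa7 at 0.30 in the deposited log2 fold change. Next to Heyl, Pabpc4 was at -0.25, and next to Hes6, Per2 was at 0.04. The genes next to Nrarp were A830007P12Rik at 0.44 and Noxa1, at 0.861 and 3.88 normalised reads in the means of DMSO and ICRF-193.

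The genes whose profile over the 6 libraries was most like that of each called member were sought among 11816 others at a mean of at least 100 normalised reads (11817 for Heyl, itself below that level), by Pearson's r on log2 values. For Hey2 they were C1s, Efs and Lactb (r from 0.9985 to 0.9989), which rose 2.08-fold, 2.17-fold and 1.82-fold. For Nrarp they were Mrps6, Slc27a3 and Wrap53 (r from 0.9967 to 0.998), at 1.73-fold, 3.06-fold and 1.41-fold, of which Wrap53 did not pass (the authors' DESeq test, adjusted p = 0.267). For Heyl they were Nmt1, Adssl1 and 4930404N11Rik (r from 0.9878 to 0.9895), at 1.04-fold, 1.82-fold and 1.78-fold, and Nmt1 did not pass (the authors' DESeq test, adjusted p = 1.0). These are the highest of many values over 6 points that share the treatment and the split of the libraries.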

How the data were processed

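Messenger RNA of mouse ES cells was sequenced in 2 samples, DMSO and ICRF-193, each labelled as 3 replicates and deposited as 1 table. Per the submitters' processing notes the authors used TopHat, HTSeq and DESeq with mm9; versions, annotation and strand are not given in the sources used here. Each group column of the deposited table is a signal: reads divided by size factors, averaged over the group. The deposited fold change is a ratio of these means, given also as log2 by the authors. The authors' DESeq p-values were deposited unadjusted and adjusted over 18759 genes.

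The members and the 16 gene lists were chosen with earlier results of these data known. The deposited test with an adjusted p under 0.05 was the main test. The 15 printed digits of the means were used to work back the reads in single libraries: 18197 genes (97.0%) had 1 solution, 511 were set by a posterior of at least 0.99, and 51, Mdm2 among them, were left out. The method was tested on simulated data. For 14976 genes that reached 10 reads in 3 or more libraries, the groups were tested by limma-voom on these reads (R 4.3.3, limma 3.58.1) with Benjamini-Hochberg adjustment. Alternatives were other scalings, no filter, the split term, pseudocounts and each library left out. Genes were named by rule: all members, every gene of a list past the test or otherwise the 2 with the largest change at a mean of at least 50, the 3 most alike profiles, and chromosomal neighbours. Markers of other cell types were given by counts and sums, with called genes named. Counting error is part of the spread between libraries.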

Additional observations from a re-analysis of the deposited data

How the results depend on the processing

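Against 3 members called by the deposited test, limma-voom called 7 with the split term, 6 without both libraries A, and 8 when that term was joined to scaling by total reads, a setting chosen after seeing the data that called 36.4% of all genes higher and 19.5% lower. At an unadjusted p under 0.05 the deposited test had 6, 4 higher and 2 lower, where 11.5% of all genes were higher and 5.38% lower. With each library left out limma-voom called 1 to 3, with 1, Hey2, without DMSO-B, DMSO-C, ICRF-193-B or ICRF-193-C. Heyl could not be tested without any one of the ICRF-193 libraries. Of 70 Notch pathway genes 7 were called, against 41 with the split term (22 higher and 19 lower, beside 27.1% and 32.7% of all genes), 35 without libraries A (beside 24.1% and 29.9%) and 41 with both settings together (31 higher and 10 lower). With each library left out the count ran from 0 (without DMSO-B or ICRF-193-B) to 11 (without ICRF-193-A), with 2 without DMSO-C and 1 without ICRF-193-C. Shares of all genes called are not given here for the fits with a library left out. Their counts are therefore not a result about the members or the pathway. With total read scaling limma-voom called 10 pathway genes higher and 0 lower, where with size factors it called 6 and 3. That scaling moved the median log2 fold change of all genes from -0.04 to 0.09. The shares of all genes called in this fit are not given here either, so its counts are not a result about the pathway. Hes7 changed sign, to -0.016 without libraries A and to -0.21 without DMSO-A (-0.21 to 0.88 over the single libraries left out), and the cause was not tested. With a pseudocount of 10 the log2 fold change was 1.21 for Heyl and 1.56 for Hey2. The signs of the other 9 members held in every setting in which they were tested. No paired analysis was possible because the table's columns carry no replicate numbers. Low reads limit Hes3, Hes5, Hes7 and Heyl.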

Other observations

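The members differed widely in their spread between libraries. In DMSO the coefficient of variation of normalised reads was 5.17% for Hes1 and 8.82% for Hey2, but 55.5% for Hes6, 59.3% for Hes7 and 67.4% for Heyl. In ICRF-193 it was 9.94% for Hes1, 15.4% for Hey2, 53.2% for Hes6 and 81.3% for Hes5. Hes6 was high in reads throughout, with 763 to 2122 in the DMSO libraries, whereas Hes7 and Heyl had at most 35 reads in any library.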
